A study of Homo sapiens with 2 samples.

Results

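The LIF, gp130 and STAT3 axis was followed through 8 genes: the receptor genes IL6ST and LIFR, the kinase genes JAK1, JAK2 and TYK2, the transcription factor gene STAT3, and the targets SOCS3 and PIM1. They were taken by symbol, and all 8 were listed among the 22474 genes of both count tables. The cells were H9, an established human embryonic stem cell line. The ffEPSC library held 25 feeder-free extended pluripotent stem cells that had been converted from H9, and the ESC library held 16 H9 embryonic stem cells. No genetic change or added agent is named for either state, and the sources used here do not give the culture media or say whether LIF was added. Each state was 1 deposited sample of 1 line, so the states could not be tested against each other, and every value below describes these libraries. Libraries were made with Smart-seq2, which copies and amplifies polyadenylated RNA of a single cell along its whole length and uses no molecular barcodes.

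Leukemia inhibitory factor (LIF) binds the receptor encoded by LIFR, which pairs with gp130, the signal-transducing chain encoded by IL6ST and shared by the whole interleukin-6 cytokine family. Kinases of the JAK family attached to these chains phosphorylate STAT3, which enters the nucleus and induces targets such as SOCS3, a feedback inhibitor of the receptor complex, and PIM1, a survival kinase. In mouse embryonic stem cells this pathway sustains self-renewal, whereas conventional human embryonic stem cells do not depend on LIF. The pathway runs on phosphorylation, which was not measured here, so the values below are RNA levels only.

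Levels are summed counts of a library per 1000000 of its gene counts (CPM), and single cells are scaled in the same way. A ratio is the log2 of ffEPSC CPM + 1 over ESC CPM + 1, and a gene counts as higher or lower from 2-fold upward. The ffEPSC cells had 12507469 to 17811209 gene counts and the ESC cells 11714517 to 19965639. Cell names carry a set number whose meaning is not given. The ffEPSC cells came from set 1 (3 cells), set 2 (9 cells), set 3 (2 cells) and set 4 (11 cells), and the ESC cells from set 1 (7 cells) and set 3 (9 cells). State and set can therefore be separated only in sets 1 and 3. A group of 4 ESC cells had low POU5F1, the OCT4 gene, and were also the shallowest (11714517 to 14683949 gene counts, against 16349317 to 19965639 in the other 12). Genes of chromosomes 5, 11, 14, 20 and 22 were higher as a whole in most ffEPSC cells. The 5 cells with a low shift both in the mean of these chromosomes (-0.021 to 0.244 on the log2 scale) and on chromosome 5 are called unshifted below. The other 20 are called shifted, and 2 of them, with means of 0.138 and 0.226, count as such through chromosome 5 alone (0.507 and 0.385). For the 8 genes, the ratios that changed most with these cells are given with and without them. All 7 pluripotency markers were above 5 CPM in both libraries, with a summed level of 5074 CPM in ffEPSCs and 5140 CPM in ESCs. Of 8 fibroblast or feeder markers 5 were listed, with a summed level of 188 CPM in ffEPSCs (32.5 to 406 CPM per cell) and 445 CPM in ESCs (108 to 657 CPM per cell), mostly from THY1, and their part in the results was not tested.

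Of the 8 axis genes, TYK2, PIM1 and IL6ST passed 2-fold upward in ffEPSCs and 0 passed it downward. STAT3 was higher by less than 2-fold, SOCS3 was lower by less than 2-fold, and JAK1, JAK2 and LIFR stood close to their ESC levels. Among the 10825 genes that reached 5 CPM in either library, 8.30% passed 2-fold upward and 5.84% downward. The median log2 ratio was 0.38 over the 8 genes and 0.04 over all genes at that floor. JAK2 missed the floor, and the other 7 reached it in both libraries, so none of them passed through 1 state alone. STAT3 and TYK2 were the 2 genes with positive ratios within both set 1 and set 3.

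The count changed with the cells used. Of the 7 genes at the floor, 2 were higher and 1 lower by 2-fold within set 1, where 14.4% of all genes were higher and 11.6% lower. Within set 3 the numbers were 0 and 3, where 10.1% of all genes were higher and 15.5% lower. Without the ESC cells low in POU5F1 they were 3 and 0 (8.08% and 6.41% of all genes), and with only the unshifted ffEPSC cells 1 and 1 (8.87% and 7.28%). Between sets of 1 state, LIFR and SOCS3 were 2-fold higher in ESC set 3 than in ESC set 1, as was JAK2, which missed the floor. Of all genes at the floor, 4.62% were higher and 3.24% lower between these ESC sets. SOCS3 was 2-fold lower in ffEPSC set 4 than in ffEPSC set 2, where 2.69% of all genes were higher and 2.74% lower. Single cells overlapped between the states for every axis gene, and over all genes at the floor 0.102% had every ffEPSC cell above every ESC cell and 0.111% had every ffEPSC cell below.

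**Figure D1:**
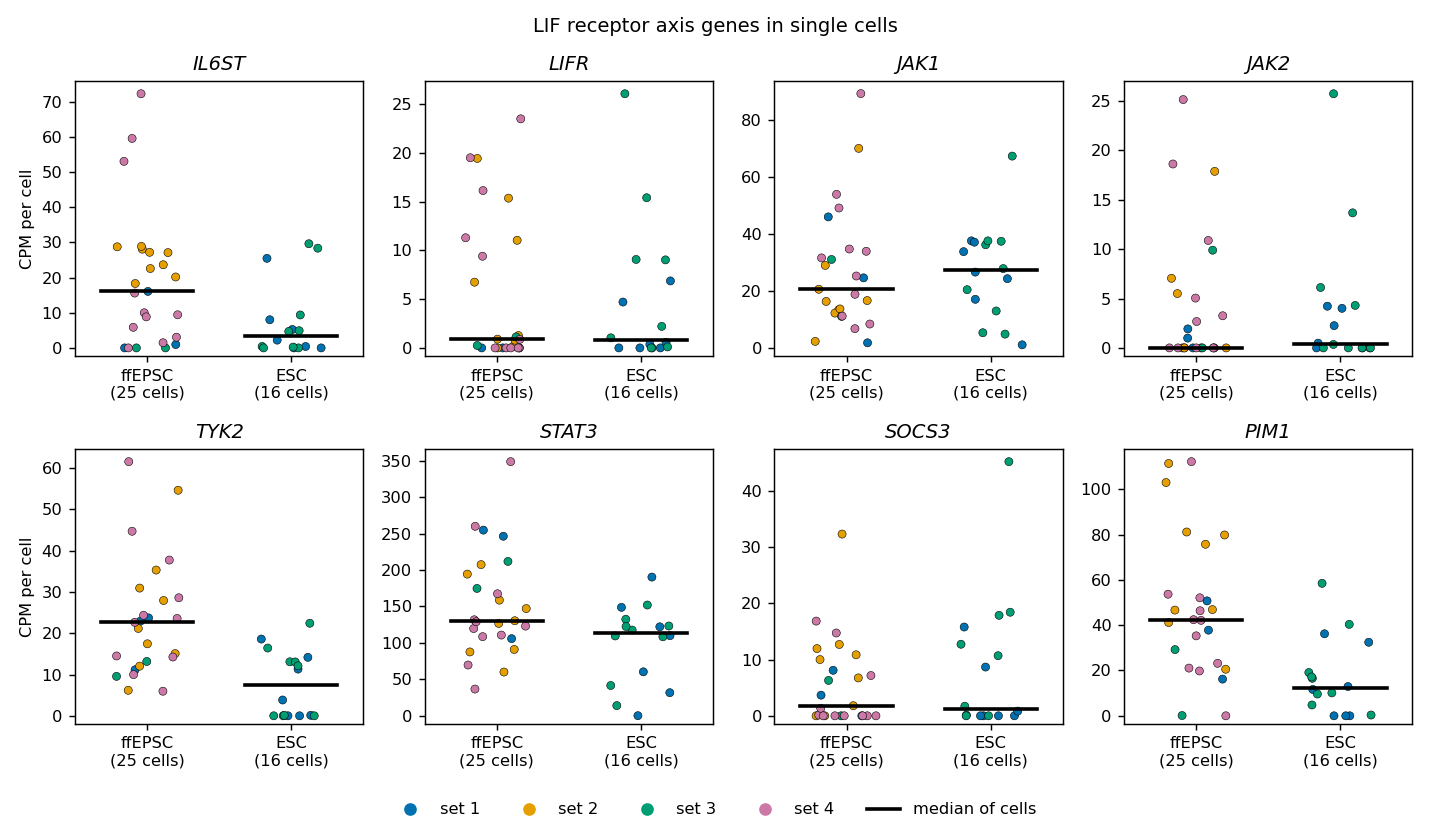
Level of each axis gene in single cells, in CPM on a linear axis, with ffEPSC cells on the left and ESC cells on the right; each point is 1 cell coloured by set, and bars are medians. TYK2 was read in all 25 ffEPSC cells and in 11 of 16 ESC cells, while LIFR, JAK2 and SOCS3 were unread in many cells of both states.

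IL6ST (chromosome 5, 55935095 to 55994993, minus strand, GRCh38) was at 0, 16.1 and 72.2 CPM in the lowest, median and highest ffEPSC cell, against 0, 3.45 and 29.6 CPM in ESC cells. Most ffEPSC cells thus lay above the ESC median, but the ranges overlapped from 0 upward. Over the libraries the level was 18.8 CPM in ffEPSCs and 7.07 CPM in ESCs, a 2.66-fold difference and a log2 ratio of 1.297. It reached 1 CPM in 20 of 25 ffEPSC cells and 9 of 16 ESC cells. After thinning every cell to 11000000 counts these numbers were 21 and 9.

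The higher IL6ST level came from sets 2 and 4, which hold ffEPSC cells only. All 9 set 2 cells fell in a narrow band, from 18.3 to 28.8 CPM with a median of 27.1 CPM. The 11 set 4 cells were spread from 0 to 72.2 CPM with a median of 9.41 CPM. In set 1 the 3 ffEPSC cells were at 0, 0.952 and 16.1 CPM, against 0, 2.21 and 25.5 CPM as the lowest, median and highest of 7 ESC cells, and the log2 ratio was -0.12. In set 3 neither of the 2 ffEPSC cells had a count, which allows up to 0.0881 CPM over both, while the 9 ESC cells ran from 0 to 29.6 CPM with 7.79 CPM in sum, giving a log2 ratio of -3.14. The direction seen over all cells was therefore not seen within the sets that hold both states.

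LIFR (chromosome 5, 38474963 to 38608354, minus strand) was at 0, 0.871 and 23.5 CPM in the lowest, median and highest ffEPSC cell and at 0, 0.808 and 26.1 CPM in ESC cells. The libraries stood at 5.28 CPM in ffEPSCs and 5.09 CPM in ESCs, a log2 ratio of 0.04, and the distributions covered each other. Expression was patchy in both states, with 1 CPM or more in 11 of 25 ffEPSC cells and 8 of 16 ESC cells. The highest 3 cells carried 45.1% of the ffEPSC counts and 66.6% of the ESC counts. Within set 1 no count was found in the 3 ffEPSC cells against 2.02 CPM in ESCs (log2 ratio -1.60), and within set 3 the 2 ffEPSC cells were at 0.246 and 1.12 CPM against 7.43 CPM in ESCs (-2.31). Between the ESC sets alone LIFR differed by a log2 ratio of 1.48 (set 3 over set 1). Without the 4 ESC cells low in POU5F1 the ratio of ffEPSCs over ESCs was -0.21.

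Both receptor genes lie on chromosome 5, whose 503 genes at the floor had a median log2 ratio of 0.32. Relative to that median IL6ST stood at 0.98 and LIFR at -0.28. Among the 5 unshifted ffEPSC cells, IL6ST was at 0, 0, 0, 16.1 and 59.5 CPM, so 2 of 5 reached 1 CPM, against 18 of the 20 shifted cells. Over these 5 cells alone the log2 ratio to ESCs was 0.95 for IL6ST, just short of 2-fold, and -0.95 for LIFR. Both set 3 cells were unshifted and all 9 set 2 cells shifted, while sets 1 and 4 held both kinds. In set 1 the unshifted cell was at 16.1 CPM of IL6ST and the 2 shifted cells at 0 and 0.952 CPM. The part of set or shift in the IL6ST difference was not tested.

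Cells with both receptor genes at 1 CPM or more numbered 10 of 25 in ffEPSCs (40%, exact 95% binomial interval 21.1 to 61.3%) and 5 of 16 in ESCs (31.25%, 11.02 to 58.7%). The intervals cover counting of cells only and overlapped widely. IL6ST without LIFR was seen in 10 ffEPSC cells and 4 ESC cells, and LIFR without IL6ST in 1 ffEPSC cell and 3 ESC cells. Neither gene reached 1 CPM in 4 cells of each state. All 8 axis genes reached 1 CPM in 3 ffEPSC cells and 1 ESC cell. At the depth of these cells 1 count is worth 0.0501 to 0.0854 CPM, so a cell at 0 may still hold the RNA, since Smart-seq2 misses transcripts.

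**Figure D2:**
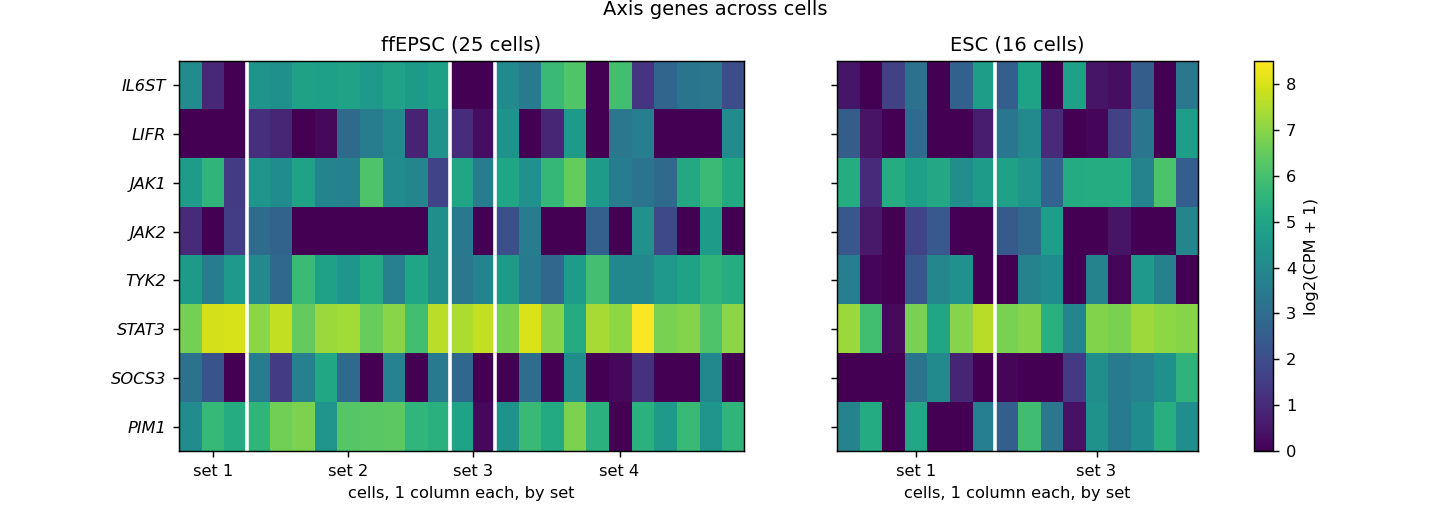
Axis genes in rows and single cells in columns, ffEPSC cells on the left and ESC cells on the right, grouped by set; colour is log2(CPM + 1). STAT3 and JAK1 were read in every cell, and IL6ST was read in all 9 ffEPSC cells of set 2 but in neither ffEPSC cell of set 3.

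TYK2, one of the 3 JAK family kinases that can attach to gp130 (chromosome 19, 10350529 to 10380676, minus strand), had the highest ratio of the axis. It was at 5.96, 22.7 and 61.6 CPM in the lowest, median and highest ffEPSC cell, against 0, 7.58 and 22.4 CPM in ESC cells. All 25 ffEPSC cells were above 5 CPM, while 5 of 16 ESC cells had no count, and the median ffEPSC cell stood above the highest ESC cell. The libraries were at 23.01 CPM in ffEPSCs and 8.07 CPM in ESCs, a 2.85-fold difference and a log2 ratio of 1.404. Of the 400 pairs of 1 ffEPSC and 1 ESC cell, the ffEPSC cell was higher in 84.25%, compared with a median of 50.25% and a 95th percentile of 81.25% over all genes at the floor.

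The TYK2 difference was 1.32 on the log2 scale within set 1, where the 3 ffEPSC cells were at 11.2, 22.95 and 23.7 CPM and the 7 ESC cells at 0 to 18.6 CPM with a median of 3.83 CPM. Within set 3 it was smaller, 0.33, with the 2 ffEPSC cells at 9.56 and 13.2 CPM and the 9 ESC cells at 0 to 22.4 CPM with a median of 12.1 CPM. It was 1.41 when the 4 ESC cells low in POU5F1 were left out, and 1.405 with only the unshifted ffEPSC cells.

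JAK1, the kinase that gp130 signalling mainly relies on (chromosome 1, 64833229 to 64966504, minus strand), was read in every cell of both states. It was at 1.79, 20.6 and 89.2 CPM in the lowest, median and highest ffEPSC cell and at 1.09, 27.2 and 67.3 CPM in ESC cells. The libraries were at 26.3 CPM in ffEPSCs and 26.8 CPM in ESCs, a log2 ratio of -0.02 with a counting interval of -0.07 to 0.02 without a pseudocount. The ratio was -0.05 within set 1, -0.37 within set 3 and -0.36 with only the unshifted ffEPSC cells, so none was near 2-fold.

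JAK2 (chromosome 9, 4984390 to 5128183, plus strand) was the least read kinase gene. It was at 0, 0 and 25.1 CPM in the lowest, median and highest ffEPSC cell and at 0, 0.416 and 25.7 CPM in ESC cells. It reached 1 CPM in 11 of 25 ffEPSC cells and 7 of 16 ESC cells, and the libraries were at 4.49 CPM in ffEPSCs and 3.68 CPM in ESCs (log2 ratio 0.23). The highest ESC cell alone held 35.7% of the ESC counts. That cell was one of the 4 low in POU5F1, and without these 4 the log2 ratio was 0.59. With only the unshifted ffEPSC cells it was -0.10, within set 1 -0.43 and within set 3 -0.01. The log2 ratio of the cell medians was -0.50, so the small positive value over all cells did not hold in these settings. Between the ESC sets alone JAK2 differed by a log2 ratio of 1.23 (set 3 over set 1). All 3 kinase genes reached 1 CPM in 11 ffEPSC cells and 5 ESC cells.

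STAT3 (chromosome 17, 42313324 to 42388568, minus strand) was the most read gene of the axis. It was at 36.7, 130 and 349 CPM in the lowest, median and highest ffEPSC cell, against 0.17, 114 and 190 CPM in ESC cells. The medians were close, while the upper end was higher in ffEPSCs and the lower end was lower in ESCs. The libraries were at 154 CPM in ffEPSCs and 105 CPM in ESCs, a 1.46-fold difference and a log2 ratio of 0.54.

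The low end of STAT3 in ESCs was made up of the 4 cells low in POU5F1, at 0.170, 14, 31.7 and 41.6 CPM, below each of the other 12 ESC cells (60.3 to 190 CPM). Without them the log2 ratio was 0.29. Over the 16 ESC cells log2 STAT3 had a Pearson r of 0.85 with log2 gene counts and of 0.78 with POU5F1. Without the 4 cells these were 0.37 and 0.32 over 12 cells. In the 25 ffEPSC cells they were 0.23 and 0.08. The points of a state share 1 library and are given as a description. Within set 1 the 3 ffEPSC cells were at 106, 246 and 255 CPM against an ESC median of 110 CPM (log2 ratio 0.99), and within set 3 the 2 ffEPSC cells were at 175 and 212 CPM, above all 9 ESC cells (14 to 152 CPM, 0.83).

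PIM1 (chromosome 6, 37170203 to 37175426, plus strand) was at 0, 42.4 and 112 CPM in the lowest, median and highest ffEPSC cell, against 0, 12.3 and 58.5 CPM in ESC cells. It reached 5 CPM in 23 of 25 ffEPSC cells and 11 of 16 ESC cells, and the ffEPSC cell was higher in 82.5% of the 400 pairs. The libraries were at 47.4 CPM in ffEPSCs and 17.8 CPM in ESCs, a 2.67-fold difference and a log2 ratio of 1.37. The ESC cells low in POU5F1 had 0, 0, 0.341 and 9.61 CPM, and the ratio without them was 1.11.

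PIM1 levels of the unshifted and the shifted ffEPSC cells overlapped in part, with the lowest cells unshifted. It was at 0, 0.123, 16.2, 29.2 and 42.1 CPM in the 5 unshifted ffEPSC cells and at 19.8 CPM or more in all 20 shifted cells, with a median of 46.8 CPM. Against ESCs the log2 ratio of those 5 cells was -0.04. Chromosome 6, where PIM1 lies, is not one of the 5 shifted chromosomes and had a median log2 ratio of -0.09. Within set 1 the ratio was 1.25, with ffEPSC cells at 16.2, 37.8 and 50.7 CPM and an ESC median of 11.6 CPM. Within set 3 it was -0.39, with ffEPSC cells at 0.123 and 29.2 CPM and an ESC median of 16.5 CPM. Set 2 stood highest at 68.2 CPM and set 4 was at 40.3 CPM.

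SOCS3 (chromosome 17, 78356778 to 78360077, minus strand) did not move with PIM1 between the states. It was at 0, 1.80 and 32.3 CPM in the lowest, median and highest ffEPSC cell and at 0, 1.27 and 45.2 CPM in ESC cells. The libraries were at 5.72 CPM in ffEPSCs and 8.99 CPM in ESCs, a log2 ratio of -0.57, but the ratio of the cell medians was 0.30, so the direction rests on a few cells. A single ESC cell held 36.04% of the ESC counts. SOCS3 reached 1 CPM in 14 of 25 ffEPSC cells and 8 of 16 ESC cells. The log2 ratio was 0.12 within set 1 and -1.72 within set 3. It was -1.33, past 2-fold downward, when the unshifted ffEPSC cells alone were set against ESCs. Between the ESC sets alone the SOCS3 ratio was 1.66 (set 3 over set 1).

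**Figure D3:**
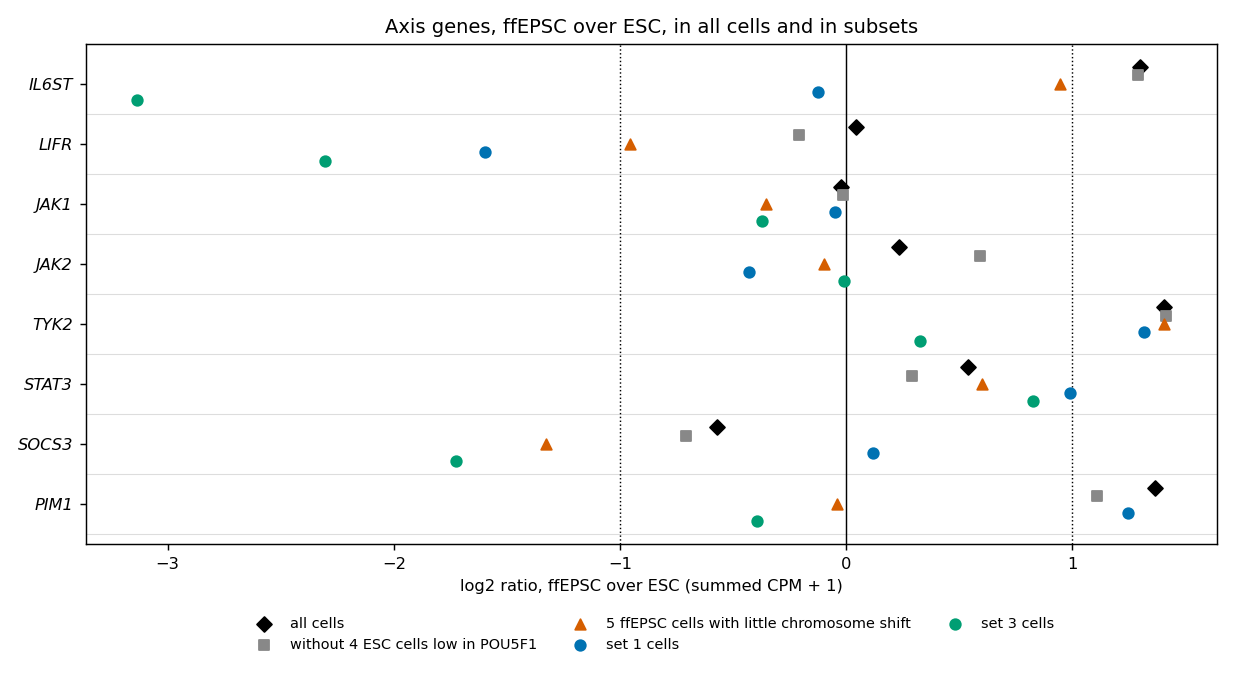
Log2 ratio of ffEPSC over ESC for each axis gene over all cells and in 4 subsets, with dotted lines at 2-fold. TYK2 and STAT3 stayed above 0 in all subsets shown, while IL6ST was at -0.12 within set 1 and -3.14 within set 3.

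Levels of different genes can be compared only per length, here CPM per kilobase of merged exons in the GENCODE annotation. In ffEPSCs the order was STAT3 (17.4), PIM1 (15.9), JAK1 (4.17), TYK2 (3.40), SOCS3 (2.09), IL6ST (2.03), JAK2 (0.728) and LIFR (0.445 CPM per kilobase). In ESCs it was STAT3 (11.97), PIM1 (5.97), JAK1 (4.24), SOCS3 (3.29), TYK2 (1.19), IL6ST (0.761), JAK2 (0.596) and LIFR (0.429 CPM per kilobase). STAT3 led and LIFR came last in both states. The quartile ranges of the cells overlapped between every pair of neighbours in these orders, except PIM1 and JAK1 in ffEPSCs. TYK2 was thus close to JAK1 in ffEPSCs, while in ESCs it stood at about the level of IL6ST.

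Promoter windows in the RefSeq table (GRCh38.p14, 250 bases before to 50 after each start) were searched for TTCNNNGAA, the palindromic core bound by STAT proteins, which reads the same on both strands. All 8 genes matched, with 16 windows in all. The motif was found in 2 windows, both of LIFR, against 7.66% of all 35116 windows. Neither window of SOCS3 and not the window of PIM1 held these letters, which says nothing of STAT3 binding elsewhere. The LIFR matches lie 165 and 182 bases before 2 alternative starts, at chr5:38595542-38595590 and chr5:38557621-38557669 on the minus strand. They are shown 5′ to 3′ with the motif in capitals.
LIFR, first start: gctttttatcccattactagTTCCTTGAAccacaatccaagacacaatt
LIFR, second start: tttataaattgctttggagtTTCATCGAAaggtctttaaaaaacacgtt

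For IL6ST, TYK2 and PIM1, the 3 axis genes past 2-fold, the stretch from 100 bases before to 50 after the start is shown, to set their start regions side by side. Capitals mark the GC box GGGCGG, searched on both strands (GGGCGG or CCGCCC). The stretches are chr5:55994914-55995063 (minus strand) for IL6ST, chr19:10380523-10380672 (minus strand) for TYK2 and chr6:37170052-37170201 (plus strand) for PIM1.
IL6ST: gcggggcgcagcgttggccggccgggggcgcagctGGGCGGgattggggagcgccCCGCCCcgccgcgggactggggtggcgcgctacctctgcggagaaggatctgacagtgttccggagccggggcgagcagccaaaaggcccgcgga
TYK2: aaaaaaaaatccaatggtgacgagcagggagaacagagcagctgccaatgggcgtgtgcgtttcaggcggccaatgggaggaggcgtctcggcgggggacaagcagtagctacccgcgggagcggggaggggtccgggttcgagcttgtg
PIM1: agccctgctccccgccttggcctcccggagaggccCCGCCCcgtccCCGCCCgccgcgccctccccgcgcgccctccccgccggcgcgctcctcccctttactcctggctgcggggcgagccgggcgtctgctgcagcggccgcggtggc
The whole window held 4 GC boxes for IL6ST, 4 for PIM1 and 0 for TYK2. At least 1 was held by 44.95% of all windows. The 3 genes therefore do not share this motif, and a match is a run of letters and not a binding site.

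Receptor level was then set against target level in each cell, as the summed CPM of IL6ST and LIFR against that of SOCS3 and PIM1. Receptor level was at 0, 19.2 and 95.8 CPM in the lowest, median and highest ffEPSC cell and at 0, 5.18 and 45.0 CPM in ESC cells. Target level was at 0.123, 46.9 and 129 CPM in ffEPSC cells and at 0, 18.3 and 62.4 CPM in ESC cells. Both sums were thus higher in the median ffEPSC cell.

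Within a state the levels showed little relation over cells. On log2(CPM + 1) Pearson r was 0.22 and Spearman rho 0.31 over 25 ffEPSC cells, and -0.01 and 0.03 over 16 ESC cells. Without the 2 cells farthest from the median receptor level r was 0.29 in ffEPSCs and -0.02 in ESCs. Single ffEPSC cells decided the value: leaving out a set 4 cell with 68.9 CPM of receptor and 0.134 CPM of target genes gave 0.50, and leaving out a set 3 cell with 0.246 and 0.123 CPM gave -0.02. Both of these cells were unshifted, and over the 20 shifted cells r was 0.36 and Spearman rho 0.32. Within set 2 (9 cells) r was -0.03 and within set 4 (11 cells) -0.24. Within the ESC sets it was 0.02 in set 1 (7 cells) and -0.14 in set 3 (9 cells). All cells of a state share 1 library, so these values are a description without a test.

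**Figure D4:**
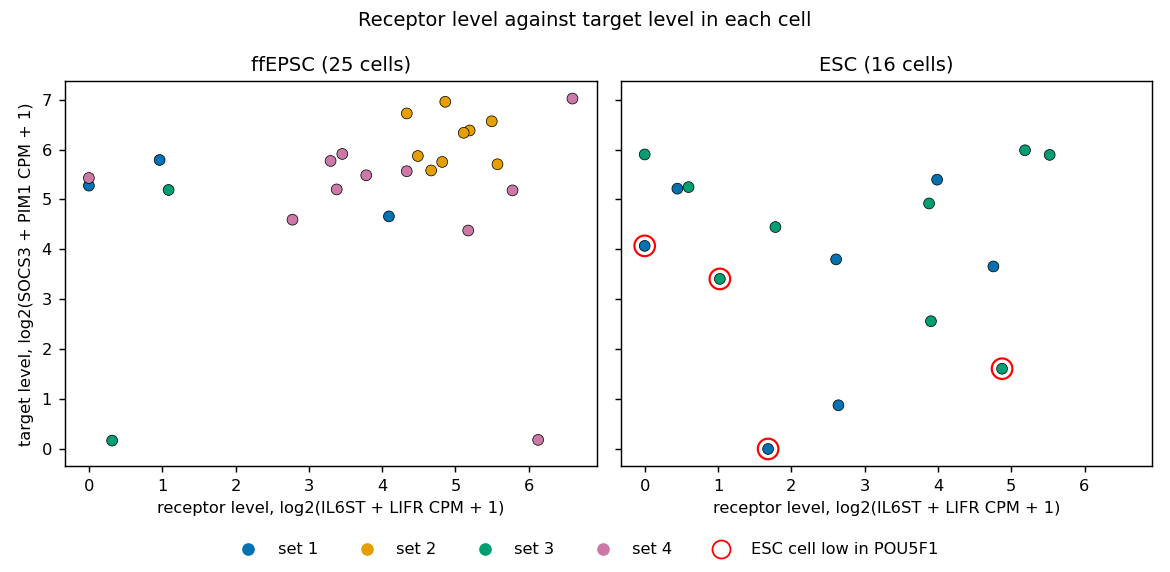
Target level against receptor level, each as log2 of summed CPM + 1, in single ffEPSC cells on the left and ESC cells on the right, coloured by set; red rings mark the 4 ESC cells low in POU5F1. Most ffEPSC cells had high target levels at any receptor level, and the 2 cells near 0 lay at opposite ends of the receptor axis.

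Taking the genes singly, IL6ST and SOCS3 had r = 0.34 over ffEPSC cells and -0.18 over ESC cells, and IL6ST and PIM1 had 0.17 and -0.03. LIFR and SOCS3 had 0.00 over ffEPSC cells and 0.14 over ESC cells, and LIFR and PIM1 had 0.09 and 0.49. The last of these was 0.23 over the 12 ESC cells that were not low in POU5F1. STAT3 and PIM1 had r = -0.15 over ffEPSC cells and 0.62 over ESC cells, and the ESC value was -0.17 without those 4 cells, so it rested on them. Receptor level and STAT3 had r = -0.50 over ffEPSC cells and 0.21 over ESC cells, while within ffEPSC sets 2 and 4 it was 0.13 and -0.40.

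Targets were also read where both receptor genes were under 1 CPM. SOCS3 or PIM1 reached 1 CPM in 3 of the 4 ffEPSC cells and 4 of the 4 ESC cells that had neither receptor gene at 1 CPM, of which 2 in each state still held a few receptor reads. PIM1 had a median of 46.5 CPM in the 20 ffEPSC cells with IL6ST at 1 CPM or more and 37.8 CPM in the 5 with less. In ESCs its medians were 11.6 CPM in 9 cells with IL6ST at 1 CPM or more and 12.9 CPM in 7 cells with less. SOCS3 had a median of 4.27 CPM in these 20 ffEPSC cells and 0 CPM in the other 5, but 0.834 CPM in these 9 ESC cells and 10.7 CPM in the other 7. All these ranges overlapped.

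The wider pathway was read through 54 further genes chosen by role, of which 49 had a row and 36 passed the 5 CPM floor. Of these, 7 were past 2-fold upward in ffEPSCs and 0 downward, beside 8.30% and 5.84% of all genes at that floor. The median log2 ratio was 0.09, beside 0.04 over all genes. Of these 7 genes 5 passed the floor through the ffEPSC library alone, so the floor favours that count. It was 2 of 23 genes with the floor raised to 20 CPM, where no share of all genes was computed. By role the 7 were 2 receptor genes and 5 targets.

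None of the ligand genes reached 5 CPM. LIF was at 1.73 CPM in ffEPSCs and had 0 counts in ESCs, where 3 counts would be 0.0113 CPM. The ffEPSC level of LIF was 153-fold above that. This fold covers the counting of reads only, and not the sampling of 16 ESC cells. Its reads came from 6 of 25 ffEPSC cells, at 1.87, 2.29, 5.82, 6.85, 10.5 and 14.8 CPM, with 3 cells in set 2 and 3 in set 4. Of these cells 5 also had IL6ST at 1 CPM or more and 3 had LIFR. PIM1 had a median of 58.9 CPM in them and 42.4 CPM in the other 19 ffEPSC cells, and SOCS3 0.898 and 3.67 CPM, with overlapping ranges for both. IL6, the interleukin-6 gene, was at 1.06 CPM in ffEPSCs from 7 cells and at 0.00754 CPM in ESCs, where 1 cell held 2 counts. CLCF1, a ligand of the CNTF receptor, was at 0.449 CPM in ffEPSCs and 1.09 CPM in ESCs, from 2 and 3 cells. In sets 1 and 3, the only ones with ESC cells, the ffEPSC cells had 0 LIF reads as well, so set and state cannot be told apart for LIF.

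Among receptor chains, CNTFR, which binds ciliary neurotrophic factor and joins LIFR and gp130, differed most. It was at 0, 12.3 and 50.7 CPM in the lowest, median and highest ffEPSC cell, against 0, 0 and 6.39 CPM in ESC cells, and reached 1 CPM in 23 of 25 and 5 of 16 cells. The libraries were at 15.9 CPM in ffEPSCs and 1.31 CPM in ESCs (log2 ratio 2.87, 1.75 within set 1 and 3.99 within set 3), and the ratio was 3.23 with only the unshifted ffEPSC cells. IL6R, the interleukin-6 receptor gene, was at 8.47 CPM in ffEPSCs and 1.32 CPM in ESCs (2.03, 2.34 within set 1 and 2.25 within set 3), with 1 CPM in 16 and 2 cells. Both reached the 5 CPM floor through the ffEPSC library alone and so had to be higher there over all cells. Their ratios were also positive within set 1 and set 3. Those of IL6ST and LIFR, which reached the floor in both libraries, were negative within these sets. IL27RA, which pairs with gp130 in the interleukin-27 receptor, was at 4.09 CPM in ffEPSCs and 5.21 CPM in ESCs (-0.29, -1.67 within set 1 and -1.93 within set 3). OSMR, the oncostatin M receptor gene, was at 1.95 CPM in ffEPSCs and 1.65 CPM in ESCs.

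**Figure D5:**
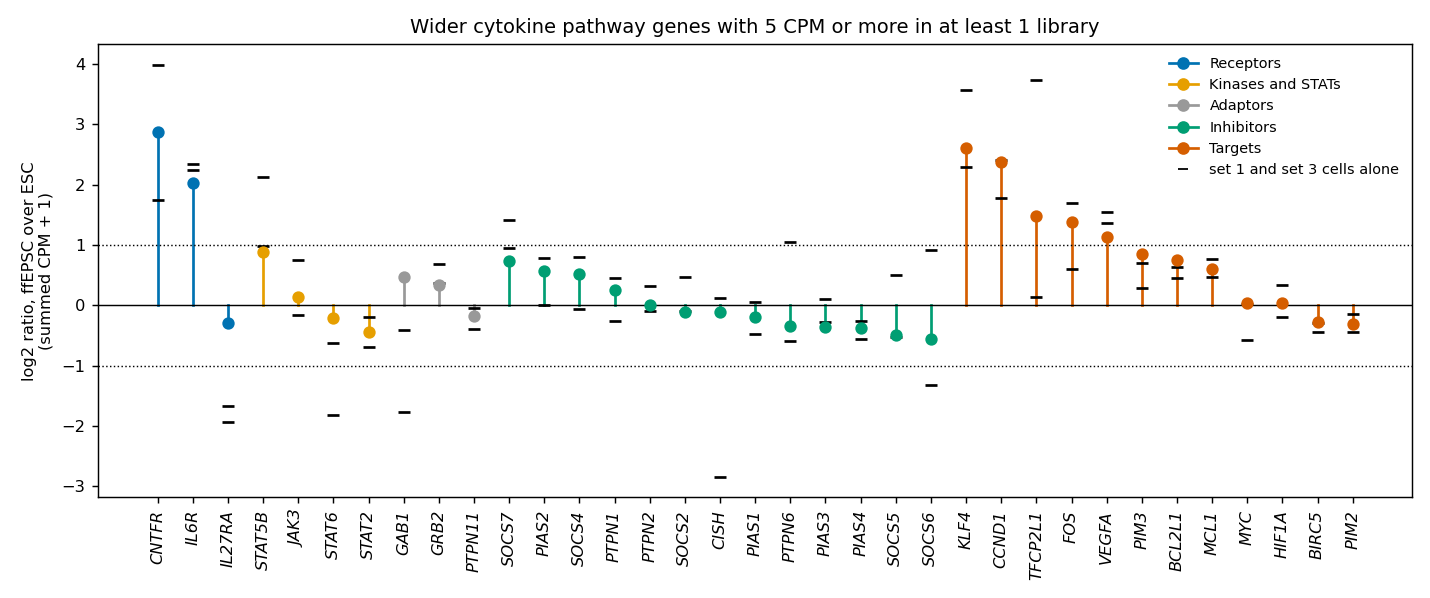
Log2 ratio of ffEPSC over ESC for 35 of the wider pathway genes at the 5 CPM floor, coloured by role, with short dashes for set 1 and set 3 cells alone and dotted lines at 2-fold. CNTFR, IL6R, KLF4, CCND1, TFCP2L1, FOS and VEGFA lie above the upper line.

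All 5 kinase and STAT genes at the floor stayed within 2-fold over all cells. STAT5B, a STAT of growth factor and cytokine receptors, was at 15.3 CPM in ffEPSCs and 7.78 CPM in ESCs (0.89, 0.99 within set 1 and 2.14 within set 3). STAT2, which acts in interferon signalling, was at 14.5 CPM in ffEPSCs and 20.2 CPM in ESCs (-0.45), and STAT6, the interleukin-4 STAT, at 20.4 CPM in ffEPSCs and 23.8 CPM in ESCs (-0.21, -1.81 within set 3). JAK3 was at 7.21 CPM in ffEPSCs and 6.45 CPM in ESCs (0.14). The 3 adaptor genes, which link gp130 to RAS and ERK signalling, stayed within 2-fold as well. The phosphatase gene PTPN11, encoding SHP2, was at 87.2 CPM in ffEPSCs and 98.2 CPM in ESCs (-0.17), GRB2 at 129.7 CPM in ffEPSCs and 103 CPM in ESCs (0.33), and GAB1 at 9.12 CPM in ffEPSCs and 6.27 CPM in ESCs (0.48, but -1.77 within set 1).

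All 13 inhibitor genes at the floor stayed within 2-fold over all cells, with a median log2 ratio of -0.12, 5 positive and 8 negative. SOCS2 was the most read SOCS gene, at 71.5 CPM in ffEPSCs and 77.1 CPM in ESCs (-0.11), and PIAS1, a STAT inhibitor, was at 72.4 CPM in ffEPSCs and 83.1 CPM in ESCs (-0.20). The ratios farthest from 0 were those of SOCS7 (0.73) and SOCS6 (-0.57), and SOCS6 was at 0.91 within set 1 and -1.32 within set 3. CISH, a target of STAT5, was at 5.05 CPM in ffEPSCs and 5.56 CPM in ESCs (-0.12), but at -2.85 within set 1 and 0.13 within set 3, and PTPN2, a phosphatase that acts on JAK and STAT proteins, at 145 CPM in ffEPSCs and 144 CPM in ESCs.

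Of 12 targets at the floor 5 were past 2-fold upward and 0 downward, beside 8.30% and 5.84% of all genes. Their median log2 ratio was 0.80, beside 0.04 over all genes, with 10 positive and 2 negative. KLF4, TFCP2L1 and VEGFA reached the floor through the ffEPSC library alone and so had to be higher there, while CCND1 and FOS reached it in both. KLF4, a transcription factor gene induced by LIF in mouse embryonic stem cells, was at 17.3 CPM in ffEPSCs and 1.98 CPM in ESCs (2.61). TFCP2L1, a STAT3 target in those mouse cells, was at 9.86 CPM in ffEPSCs and 2.88 CPM in ESCs (1.49), but at 0.14 within set 3. CCND1, the cyclin D1 gene, was at 303 CPM in ffEPSCs and 57.3 CPM in ESCs (2.38), and every ffEPSC cell lay above every ESC cell. FOS was at 46.5 CPM in ffEPSCs and 17.2 CPM in ESCs (1.38), and VEGFA at 5.97 CPM in ffEPSCs and 2.19 CPM in ESCs (1.13). CCND1 and FOS lie on chromosomes 11 and 14, which were among the shifted ones, and their ratios with only the unshifted ffEPSC cells were 2.06 and 1.14. These targets answer to other pathways as well.

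Most of the other targets had positive ratios over all cells, some of them close to 0, while KLF5, BIRC5 and PIM2 had negative ones. GBX2, a LIF-induced gene of mouse embryonic stem cells, was below the 5 CPM floor. It was at 2.65 CPM in ffEPSCs, with 10 cells at 1 CPM or more, and had 0 counts in ESCs. Its ffEPSC level was 234-fold above the 0.0113 CPM that 3 ESC counts would give, a fold that covers the counting of reads only. Its log2 ratio was 1.87 over all cells but 0.64 within set 1 and 0 within set 3. The fold thus rests mainly on sets 2 and 4, which hold ffEPSC cells only, and set and state can hardly be told apart for GBX2. BCL3 was at 3.26 CPM in ffEPSCs and 0.0829 CPM in ESCs, and JUNB at 3.63 CPM in ffEPSCs and 0.897 CPM in ESCs, both also below the floor. Of the other targets below it, KLF5 was lower in ffEPSCs, at 0.0962 CPM against 0.316 CPM in ESCs. IER3 was at 1.89 CPM in ffEPSCs and 1.49 CPM in ESCs, and SBNO2 at 0.850 CPM in ffEPSCs and 0.573 CPM in ESCs. MYC was at 112 CPM in ffEPSCs and 109 CPM in ESCs (0.04), and MCL1, a survival gene, at 109.7 CPM in ffEPSCs and 71.97 CPM in ESCs (0.60). BCL2L1, on the shifted chromosome 20, was at 58.6 CPM in ffEPSCs and 34.3 CPM in ESCs (0.75, and 0.48 with only the unshifted ffEPSC cells). HIF1A, the hypoxia factor gene, was at 278 CPM in ffEPSCs and 272 CPM in ESCs (0.03), and BIRC5, the survivin gene, at 266 CPM in ffEPSCs and 323 CPM in ESCs (-0.28). Of the paralogs of PIM1, PIM2 went the other way, at 733 CPM in ffEPSCs and 910 CPM in ESCs (-0.31). PIM3 was higher in ffEPSCs as PIM1 was, but by less than 2-fold, at 14.7 CPM in ffEPSCs and 7.74 CPM in ESCs (0.85).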

How the data were processed

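Gene counts of 41 single cells were used as deposited by the authors, as whole-number counts without normalization. The submitters' processing notes name HISAT2 2.2.1, SAMtools 1.6, Subread 2.0.6, featureCounts and bcl2fastq, and the builds GRCh38 and T2T-CHM13. Annotation, strand use and the handling of reads with many matches are not stated in these sources. Repeat counts were not used. Of the non-zero counts of a cell, a median of 98.4% in ffEPSCs and 98.5% in ESCs were even, which would arise if both mates were counted, and counting intervals are then too narrow. They are exact (Poisson, conditional binomial or Clopper-Pearson) at 95% and cover counting error only, and a count of 0 allows 3 counts. No cell was removed, no doublet caller was run, and no cell name or count profile was shared between the libraries.

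Counts were summed per library. With 1 sample per state no p-value was computed. Members and lists were chosen with earlier results of these data known, the lists from textbook knowledge. All members were named, with wider genes past 2-fold at 5 CPM and up to 3 more per role by level. SOCS6, SOCS7, CISH, STAT5B, JAK3, GBX2, BCL3, JUNB, MYC, MCL1 and PIM3 were chosen after their values were seen. KLF5, IER3, SBNO2 and BCL2L1 were named as well, to give every target. ESC cells under 300 CPM of POU5F1 were called low. For chromosome shift, log2(CPM + 1) of genes at 20 CPM minus the ESC mean was averaged per chromosome, and the cell's median autosome was subtracted. Chromosomes with a median ratio of at least 0.25 were taken, and ffEPSC cells under 0.3 in their mean and on chromosome 5 were called unshifted. GENCODE release 29, matched by 17036 of 22474 symbols, gave coordinates and exon lengths. On cells simulated for ffEPSC over ESC with 22474 genes, 50 genes raised 2-fold had a median log2 ratio of 0.94 and 50 raised 4-fold had 2.02. Another 50 lowered 2-fold had -0.90 and 50 lowered 4-fold had -1.86. Of 9826 unchanged genes 1.11% passed 2-fold. The simulated cells were drawn independently, without differences between sets or chromosome shifts, so this share does not measure chance passes in the real cells. Python 3.11.15, numpy 2.4.6, scipy 1.17.1 and pandas 2.3.3 were used. Alternatives were the pseudocount, scaling, weighting of cells, floors and left-out cells or sets. The values of 1 gene of the wider list are not reported here.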

Additional observations from a re-analysis of the deposited data

How the results depend on the processing

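No paired analysis was possible because each state is 1 sample with no replicate number. The number of axis genes at least 2-fold higher (3) was 0 in set 3 cells and 1 with only the 5 unshifted ffEPSC cells, and the number at least 2-fold lower (0) was 1 in set 1, 3 in set 3 and 1 in those 5 cells. Reversed against all cells were IL6ST within set 1 (-0.12) and set 3 (-3.14), and PIM1 within set 3 (-0.39) and in the 5 cells (-0.043). TYK2 ranged from 0.33 to 1.5 and STAT3 from 0.20 to 0.99 over 9 alternatives, each positive in all 9. The median over the 8 genes (0.38) was 0.25 with cell medians, 0.035 in set 1, -0.38 in set 3, -0.070 in the 5 cells and 0.46 without the highest cell of each gene. The median of the wider list (0.09) was 0.28 with cell medians, 0.46 in set 1, -0.024 without the ESC cells low in POU5F1, 0.19 in the 5 cells, 0.18 without the highest cells, 0.215 with no floor and -0.11 at 20 CPM. Its genes at least 2-fold higher (7 of 36) numbered 12 of 49 with no floor and 2 of 23 at 20 CPM. Those at least 2-fold lower (0) numbered 2 with cell medians, 3 in set 1, 4 in set 3, 2 in the 5 cells and 1 with no floor. Over all genes at 5 CPM, 11.6% were at least 2-fold lower in set 1, 15.5% in set 3 and 7.28% in the 5 cells. For the other settings no share of all genes is given. Receptor against target r was -0.24 in ffEPSC set 4 and -0.14 in ESC set 3. The cause of these differences was not tested. Subsets rest on 2, 3 or 5 ffEPSC cells, and genes near 5 CPM on few cells.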

Other observations

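Pearson r of log2(CPM + 1) between PIM1 and POU5F1 was 0.71 over 25 ffEPSC cells and 0.62 over 16 ESC cells. The ffEPSC value was 0.35 without the 2 cells farthest from the median PIM1 level, so it rested partly on them, and it was 0.50 within set 2 (9 cells) and 0.92 within set 4 (11 cells). The ESC value was 0.45 without the 4 cells low in POU5F1, with a Spearman rho of 0.22. Those cells are also the shallowest, and PIM1 had an r with log2 gene counts of -0.12 over ffEPSC cells and 0.65 over the 16 ESC cells, and of 0.15 over the ESC cells without those 4. Cells of a state share 1 library, and PIM1 was one of 8 genes compared with POU5F1, so these values are a description.

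The genes whose levels were most like those of an axis gene over cells, by the smaller of the r values over 25 ffEPSC and 16 ESC cells among 9405 genes with 5 CPM in both libraries, were as follows. STAT3 was most like BYSL (0.76 in ffEPSCs and 0.88 in ESCs), ACOT1 (0.75 and 0.80) and CHFR (0.69 and 0.78). PIM1 was most like MTA2 (0.70 and 0.70), EIF4B (0.72 and 0.70) and TAB1 (0.69 and 0.72). JAK1 was most like ALG2 (0.66 and 0.62), ANK3 (0.62 and 0.57) and HDGFL3 (0.59 and 0.56). SOCS3 was most like MFAP4 (0.60 and 0.68), UPP1 (0.54 and 0.66) and WDR13 (0.51 and 0.53). TYK2 was most like SDF2L1 (0.71 and 0.51), EIF3FP3 (0.50 and 0.69) and EIF3F (0.48 and 0.63), of which EIF3FP3 is a copy of EIF3F that can share reads with it. IL6ST (BTBD1, 0.52 and 0.58) and LIFR (NARS2, 0.54 and 0.52) had weaker best matches. Of the 7 axis genes compared none was among the 3 closest genes of another. With 3 places among 9405 genes that says little about the axis. These r values are the highest picked from 9405 genes over few cells, and what such picking alone would give was not tested. JAK2 was under 5 CPM and was not compared.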
